A study of Mus musculus with 16 samples.

Results

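The genes described here encode the enzymes that remove superoxide and peroxides: the superoxide dismutases Sod1, Sod2 and Sod3, catalase (Cat), and the glutathione peroxidases Gpx1, Gpx3, Gpx4, Gpx7 and Gpx8. They were taken from the table by their gene symbol, and each was represented by its brightest probe set, a probe set being the group of short probes that measures 1 transcript on the array. All 9 were found among the 17097 genes with a named probe set, and all 9 were among the 14819 genes tested. Expression was measured in fibroblasts of the dermis, which make the matrix of the skin, on 16 Affymetrix mouse arrays. Of each mouse, 5000 cells were profiled right after isolation and another 5000 after a period in culture. The comparison asks how the age difference of these cells looks before and after culture.

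The 4 groups held 4 arrays each: young in vivo and young cultured from mice of 2 months, and old in vivo and old cultured from mice of 18 months. "In vivo" is the labels' term for cells profiled without culture. All mice were female C57Bl/6, an inbred laboratory strain, and the groups differed only in age and in culture as far as the labels say. The sources used here do not give the isolation method, the medium, the passage or the days in culture. Each sample came from 1 mouse, but the labels do not say which in vivo and cultured samples share a mouse, so replicate numbers below only name arrays. Values are log2 signals, on which a difference of 1 is a 2-fold change.

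Superoxide, a by-product of respiration and of oxidases, is turned into hydrogen peroxide by superoxide dismutases. Sod1 does this with copper and zinc in the cytosol, Sod2 with manganese in the mitochondrial matrix, and Sod3 with copper and zinc outside the cell, bound to matrix. Catalase breaks down hydrogen peroxide in peroxisomes. Glutathione peroxidases reduce peroxides with electrons from glutathione: Gpx1 in the cytosol and mitochondria, Gpx3 in extracellular fluid, and Gpx4 on oxidised membrane lipids. Those 3 carry selenocysteine, whereas Gpx7 and Gpx8 lie in the endoplasmic reticulum and carry cysteine at that place. In skin, Sod3 is held in the matrix between cells.

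The start regions of 3 of the genes are shown because these genes behaved differently in culture: Gpx3 was lower, Cat was higher, and the probe sets of Sod2 gave opposite directions. The RefSeq table of assembly GRCm38.p6 held the 250 bases before the gene start for 8 of the 9 genes, in 11 windows. It held none for Sod3. Capitals mark matches, on either strand, to the GC box GGGCGG, the CCAAT box, the TATA box TATAAA, the antioxidant response element core TGACNNNGC, and a kappaB consensus. The windows are Gpx3 at chr11:54902604-54902853 on the plus strand, Cat at chr2:103485154-103485403 on the minus strand, and Sod2 at chr17:13007589-13007838 on the plus strand.
Gpx3: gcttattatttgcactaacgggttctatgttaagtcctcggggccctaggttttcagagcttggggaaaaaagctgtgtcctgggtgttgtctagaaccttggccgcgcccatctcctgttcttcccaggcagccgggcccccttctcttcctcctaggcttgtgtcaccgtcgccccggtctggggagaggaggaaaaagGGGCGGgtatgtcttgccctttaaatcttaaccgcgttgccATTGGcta
Cat: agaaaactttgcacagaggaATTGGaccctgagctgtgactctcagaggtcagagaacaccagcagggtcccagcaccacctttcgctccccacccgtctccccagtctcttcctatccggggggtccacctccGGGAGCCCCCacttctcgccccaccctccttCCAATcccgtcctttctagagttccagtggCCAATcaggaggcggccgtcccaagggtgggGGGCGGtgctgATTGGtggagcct
Sod2: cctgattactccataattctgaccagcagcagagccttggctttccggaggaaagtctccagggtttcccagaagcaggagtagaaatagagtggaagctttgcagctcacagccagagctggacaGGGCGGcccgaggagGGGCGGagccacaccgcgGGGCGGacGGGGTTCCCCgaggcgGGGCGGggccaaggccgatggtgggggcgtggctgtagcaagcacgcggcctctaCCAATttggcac

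The Gpx3 window held a GC box starting 49 bases and a CCAAT box 8 bases before the gene start. The Cat window held 4 CCAAT boxes, 1 GC box and 1 kappaB match, and the Sod2 window held 4 GC boxes, 1 CCAAT box and 1 kappaB match. Among the windows not printed, that of Sod1 held the only antioxidant response element core and the only TATA box of the 11, and that of Gpx1 held a kappaB match. Over all 32851 windows of the same length, 32.7% held the GC box, 33.8% the CCAAT box, 12.4% the TATA box, 10.2% the antioxidant response element core and 7.25% the kappaB consensus. These are matches of letters, not measured binding sites.

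Before the results, some facts on the arrays matter. The array medians lay between 4.83 and 4.92 in vivo and between 4.74 and 4.76 in culture, without overlap. No 2 arrays were identical (0 pairs). The fibroblast markers Col1a1 and Dcn were bright in every group, with mean log2 values for Col1a1 of 12.6 and 12.5 in fresh young and old cells and 12.2 in both cultured groups, and for Dcn, a matrix proteoglycan gene, of 12.6 and 12.7 in fresh and 11.1 and 10.9 in cultured young and old cells. The sum over 11 fibroblast markers was 14.9 to 15.1 in vivo and 14.2 to 14.4 in culture, and the marker Pdgfra was dim, with group means from 4.63 to 5.05. Of the 11, 8 were called lower and 0 higher in culture, where 44.7% and 34.8% of all genes were. Among them Lum had group means of 11.68 and 11.65 in vivo and 7.23 and 6.83 in culture. RNA quality was read from Actb, as the signal of its 3' probe set minus that of its 5' probe set. In vivo this was -0.41 ± 0.07 (SD, n = 4) on young and -0.46 ± 0.11 on old arrays, and after culture 0.07 ± 0.04 on young and 0.10 ± 0.07 on old arrays, so it moved with culture. The same difference for Gapdh did not separate the conditions, but in vivo it was -0.12 to -0.04 on young and -0.17 to -0.13 on old arrays, without overlap. Summed markers of other cell types moved with culture as well. Over 12 macrophage genes the sum was 8.95 to 9.70 in vivo and 8.06 to 8.36 in culture. It was 8.27 to 9.45 and 7.39 to 7.60 for 9 endothelial genes, 8.54 to 10.4 and 7.79 to 7.96 for 9 keratinocyte genes, 6.72 to 7.59 and 7.85 to 10.3 for 5 adipocyte genes, and 7.64 to 7.90 and 8.98 to 10.2 for 8 skeletal muscle genes. The erythroid and melanocyte sums were also lower on all cultured arrays. Of 7 skeletal muscle genes tested, 1 was called higher and 5 lower in culture, where 34.8% and 44.7% of all genes were. Of 3 adipocyte genes tested, 1 was called higher and 1 lower. Among these markers Acta1 had group means of 4.66 and 4.52 in vivo and 9.92 and 9.27 in culture. Of the 12 macrophage genes, 7 in vivo and 10 in culture had group means below 4.42, the 95th percentile of the array's control probe sets, among them Adgre1 and C1qa in all groups. Cd68 read 8.09 in young and 8.10 in old cells in vivo and 5.50 and 5.52 in culture, Lyz2 5.09 and 5.25 in vivo and 4.14 and 4.11 in culture, and Csf1r 7.53 and 6.46 in vivo and 6.63 and 6.51 in culture. Old in vivo replicate 1 stood apart, with a summed keratinocyte marker level of 10.4 against 8.54 to 8.92 on the other in vivo arrays. The part of these differences in the results was not tested.

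The clearest change was in the extracellular enzymes, Sod3 and Gpx3, which fell in culture at both ages. On their brightest probe sets the intracellular enzymes moved far less. Cat rose, while the changes of Sod1, Sod2, Gpx1 and Gpx4 were small and depended on scaling or probe set. The second Sod1 probe set fell by 1.79, and among the other Sod2 probe sets 1 rose by 1.33 and another fell by 0.62. The remaining Sod2 probe set, nearly as bright as the brightest, changed by -0.16 and did not pass. Gpx7 and Gpx8 did not pass the test. Old and young cultured cells did not differ detectably in any of the 9 genes, and in vivo the largest age differences, in Sod3 and Gpx4, did not pass the threshold. The plot of the 9 genes by array shows these patterns.

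**Figure D1:**
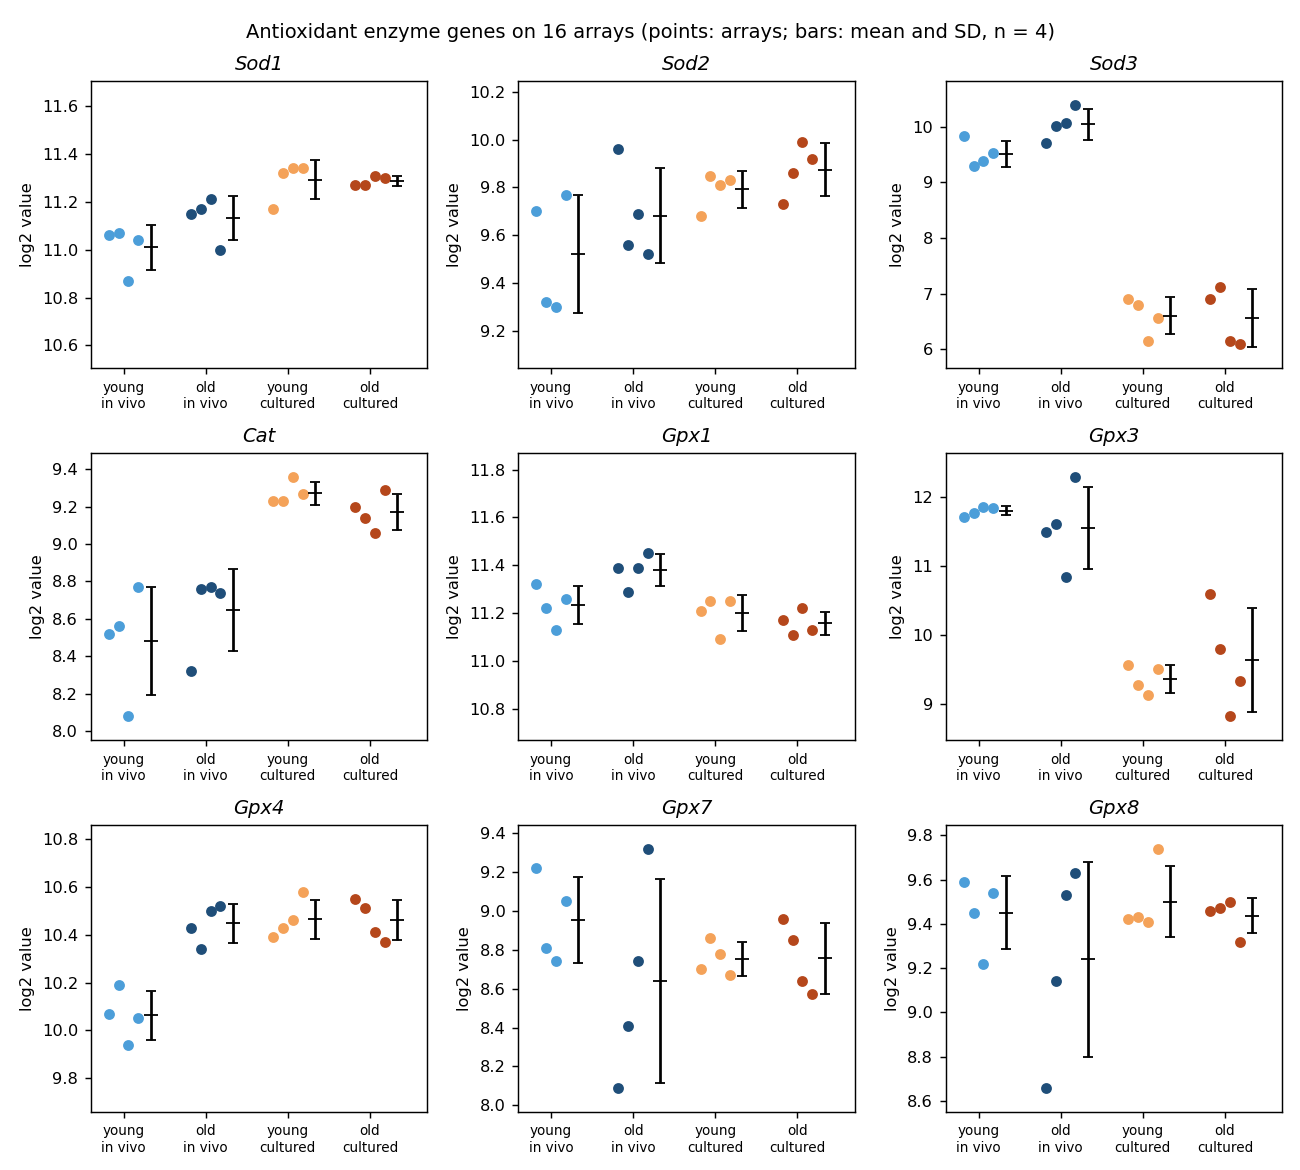
Log2 signal (y axis) of the 9 genes on each of the 16 arrays, grouped on the x axis by age and condition; points are arrays and black bars are mean and SD of 4 arrays. All cultured arrays lie below all in vivo arrays for Sod3 and Gpx3 and above them for Cat, and the old in vivo arrays of Gpx4 lie above the young ones.

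Sod3, the extracellular dismutase, read 9.83, 9.30, 9.38 and 9.53 on the young in vivo arrays and 9.70, 10.01, 10.06 and 10.39 on the old in vivo arrays. After culture it read 6.90, 6.79, 6.15 and 6.56 in young and 6.90, 7.12, 6.15 and 6.09 in old samples. Every cultured array was lower than every in vivo array. Averaged over ages, Sod3 fell by 3.19 ± 0.16 (log2, SE; limma adjusted p = 1.16e-11), a 9.14-fold lower signal with a 95% confidence interval of 7.24 to 11.5. Of the 14819 genes tested, 144 fell at least as far (0.972%). The fall was 7.52-fold in young cells (adjusted p = 6.92e-09) and 11.1-fold in old cells (adjusted p = 9.54e-10), and the test of that difference between ages gave an adjusted p of 0.503. The cultured signal stayed above the control level of 4.42 on every array. In bulk samples, fewer cells of a type and less RNA per cell cannot be told apart.

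Gpx3, the secreted glutathione peroxidase, read 11.72, 11.78, 11.86 and 11.85 in young in vivo and 11.49, 11.61, 10.84 and 12.30 in old in vivo samples. After culture the values were 9.56, 9.27, 9.12 and 9.50 in young and 10.59, 9.79, 8.82 and 9.33 in old samples. The conditions again did not overlap, although the highest cultured value, old replicate 1, came close to the lowest in vivo value, old replicate 3. Averaged over ages Gpx3 fell by 2.18 ± 0.21 (adjusted p = 7.90e-08), a 4.54-fold lower signal with an interval of 3.32 to 6.22, and 377 tested genes (2.54%) fell at least as far. It was 5.43-fold in young (adjusted p = 2.20e-06) and 3.80-fold in old cells (adjusted p = 3.52e-05). The old groups were more scattered, with SDs of 0.60 in vivo and 0.75 in culture against 0.07 and 0.20 in the young groups; that difference in spread was not tested. The array with the highest cultured Gpx3, old cultured replicate 1, also had the highest summed level of 5 adipocyte markers, 10.3, and old cultured replicate 3, with the lowest Gpx3, had the lowest cultured sum, 7.85. Of these 5 markers, Fabp4 had group means of 3.89 and 4.80 in vivo and 8.80 and 8.53 in culture, and read 10.17 and 7.19 on these 2 arrays. The other markers of this list all had lower group means in culture than in vivo at both ages. Adipoq was below the control level in all groups, and the part of these markers in the Gpx3 values was not tested.

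Catalase moved the other way. Cat read 8.52, 8.56, 8.08 and 8.77 in young in vivo and 8.32, 8.76, 8.77 and 8.74 in old in vivo samples, against 9.23, 9.23, 9.36 and 9.27 in young cultured and 9.20, 9.14, 9.06 and 9.29 in old cultured samples. All cultured values were above all in vivo values. Cat rose by 0.66 ± 0.09 (adjusted p = 5.52e-06), or 1.58-fold with an interval of 1.38 to 1.80. The rise was 1.73-fold in young (adjusted p = 4.59e-05) and 1.44-fold in old cells (adjusted p = 0.00213). In all, 3052 tested genes (20.6%) rose at least as far, so a rise of this size was common in these cultures.

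Sod1, the cytosolic dismutase, read 11.06, 11.07, 10.87 and 11.04 in young in vivo, 11.15, 11.17, 11.21 and 11.00 in old in vivo, 11.17, 11.32, 11.34 and 11.34 in young cultured, and 11.27, 11.27, 11.31 and 11.30 in old cultured samples. Within each age all cultured arrays lay above all in vivo arrays. The change averaged over ages was 0.22 ± 0.05 (adjusted p = 0.00135). It was 0.28 in young (adjusted p = 0.00331) and 0.16 in old cells (adjusted p = 0.0821). Sod2, the mitochondrial dismutase, read 9.70, 9.32, 9.30 and 9.77 in young in vivo, 9.96, 9.56, 9.69 and 9.52 in old in vivo, 9.68, 9.85, 9.81 and 9.83 in young cultured, and 9.73, 9.86, 9.99 and 9.92 in old cultured samples. Its groups overlapped, and its change of 0.23 ± 0.08 passed the test averaged over ages (adjusted p = 0.0195) but not in young (adjusted p = 0.0527) or old cells (adjusted p = 0.168). The change in young passed without young in vivo replicate 1 or 4, old in vivo replicate 1 or young cultured replicate 1 (adjusted p down to 0.0178), and that in old without old in vivo replicate 1 (adjusted p = 0.0459). Both directions depend on the scaling: with arrays scaled to their 75th percentile the changes were 0.02 for Sod1 and 0.03 for Sod2, and with cyclic loess they were -0.07 and -0.08, none of them past the threshold.

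Gpx1, the abundant cytosolic peroxidase, read 11.32, 11.22, 11.13 and 11.26 in young in vivo and 11.39, 11.29, 11.39 and 11.45 in old in vivo samples. Its values in culture were 11.21, 11.25, 11.09 and 11.25 in young and 11.17, 11.11, 11.22 and 11.13 in old samples. Old cultured arrays were all below old in vivo arrays, whereas the young groups overlapped. The fall averaged over ages was small, 0.13 ± 0.05 (adjusted p = 0.0296), and was lost without young in vivo replicate 1, young cultured replicate 3, old in vivo replicate 4, old cultured replicate 2 or old cultured replicate 4 (adjusted p up to 0.0662). In old cells it fell by 0.22 ± 0.07 (adjusted p = 0.0130), and in young cells the change was -0.03 (adjusted p = 0.689). The difference averaged over ages was -0.33 with 75th percentile scaling and -0.42 with cyclic loess, and in young cells it was -0.27 (adjusted p = 0.00338) and -0.36 (adjusted p = 1.42e-04).

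Gpx4, which removes lipid peroxides from membranes and so holds back ferroptosis, read 10.07, 10.19, 9.94 and 10.05 in young in vivo and 10.43, 10.34, 10.50 and 10.52 in old in vivo samples. In culture it read 10.39, 10.43, 10.46 and 10.58 in young and 10.55, 10.51, 10.41 and 10.37 in old samples. The young in vivo arrays were thus the low group, and the other 3 groups covered the same range. Gpx4 rose in young cells by 0.40 ± 0.08 (adjusted p = 2.76e-04, 1.32-fold), while in old cells the change was 0.01 ± 0.08 (adjusted p = 0.897). With 75th percentile scaling the young change was 0.17 (adjusted p = 0.0696), and with cyclic loess it was 0.05 in young and -0.25 in old cells, the latter past the threshold (adjusted p = 0.00739). Averaged over ages the change was 0.21 ± 0.06 (adjusted p = 0.00293), against 0.01 with 75th percentile scaling and -0.10 with cyclic loess.

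The enzymes of the endoplasmic reticulum, where oxidising protein folding makes peroxide, did not pass the test in culture. Gpx7 read 8.74 to 9.22 in young in vivo, 8.09 to 9.32 in old in vivo, 8.67 to 8.86 in young cultured and 8.57 to 8.96 in old cultured samples. Gpx8 read 9.22 to 9.59, 8.66 to 9.63, 9.41 to 9.74 and 9.32 to 9.50 in the same order. The changes averaged over ages were -0.04 ± 0.14 for Gpx7 (adjusted p = 0.771) and 0.12 ± 0.12 for Gpx8 (adjusted p = 0.328), and the groups of both genes overlapped. With cyclic loess the Gpx7 difference was -0.35 and passed the threshold (adjusted p = 0.0132), and in young cells it passed with 75th percentile scaling (-0.44, adjusted p = 0.0306) and cyclic loess (-0.56, adjusted p = 0.00781). The lowest value of either gene was on old in vivo replicate 1, the array with the high keratinocyte markers. Without it the Gpx7 difference between cultured and in vivo old cells was -0.07, against 0.12 with it.

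Averaged over ages, 7 of the 9 genes passed the threshold, 4 higher and 3 lower, where 79.5% of all tested genes did, 34.8% higher and 44.7% lower. With 75th percentile scaling 1 was higher and 3 were lower, where 12686 of 14819 genes passed, 4119 of them higher. With cyclic loess 1 of the 9 was higher and 4 were lower, where 10228 of all genes passed, 4759 of them higher. The median change of the 9 genes as deposited was 0.12 against -0.11 for all genes. In young cells 5 of 9 passed (71.2% of all genes) and in old cells 4 of 9 (62.8%). Both shares lie near or below those of all genes, so the count of changed members is not a result about these enzymes. Groups without overlap were found for 3 of 9 genes over both ages (45.1% of all genes), 5 of 9 in young (63.6%) and 5 of 9 in old cells (58.0%). A change that passed and was at least 2-fold was seen in 2 of 9, Sod3 and Gpx3, against 21.4% of all genes. The direction of calls among all genes depended on scaling: 43.7% of the culture calls were higher as deposited, 32.5% with 75th percentile scaling and 46.5% with cyclic loess. The median of all genes moved from -0.11 to -0.31 and -0.05, and relative to it Sod3 and Gpx3 lay far below and Cat above in each case. The falls of Sod3 were -3.39 and -3.50 on these scalings, those of Gpx3 -2.38 and -2.49, and the rises of Cat 0.46 and 0.35, all past the threshold.

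**Figure D2:**
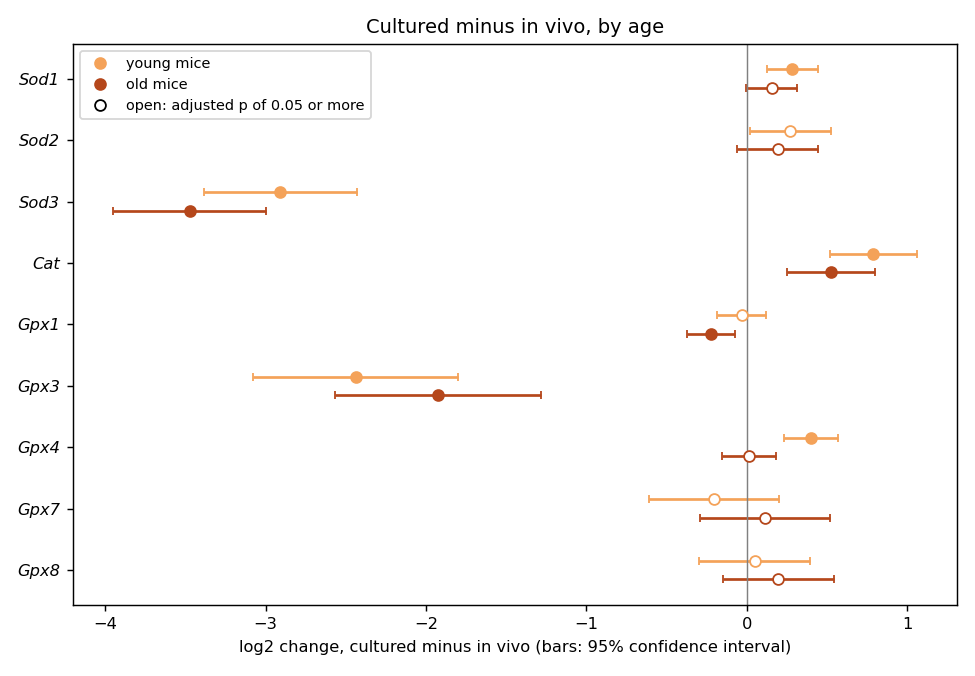
Log2 change from in vivo to cultured (x axis) of the 9 genes (y axis) in young and old mice, with 95% confidence intervals; filled points passed an adjusted p of 0.05. Sod3 and Gpx3 lie between -3.48 and -1.93, Cat lies at 0.79 and 0.53, and the other 6 genes lie between -0.22 and 0.40.

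Several of these genes have more than 1 probe set, 16 in all for the 9 genes, and these were tested separately. The second Sod3 probe set fell by 2.88 ± 0.11 (adjusted p = 3.22e-13). For Cat the second rose by 0.39 ± 0.10 averaged over ages (adjusted p = 0.00227), but in old cells its change was 0.18 (adjusted p = 0.293). The second Gpx4 probe set, whose name marks probes that may match other transcripts, rose by 0.32 ± 0.05 (adjusted p = 2.53e-05) and by 0.26 in old cells (adjusted p = 0.00513), where the brightest probe set gave 0.01. Gpx1, Gpx3, Gpx7 and Gpx8 have 1 probe set each.

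The probe sets of Sod1 and Sod2 disagreed. The second Sod1 probe set, with group means of 7.69 and 7.74 in vivo and 5.93 in both cultured groups, fell by 1.79 ± 0.13 (adjusted p = 1.28e-09), against the rise of 0.22 on the brightest. Among the other Sod2 probe sets, 1 rose by 1.33 ± 0.12 (adjusted p = 2.77e-08), another fell by 0.62 ± 0.08 (adjusted p = 3.68e-06), and the third changed by -0.16 ± 0.07 (adjusted p = 0.0542). No single direction in culture can therefore be given for Sod1 or Sod2.

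**Figure D3:**
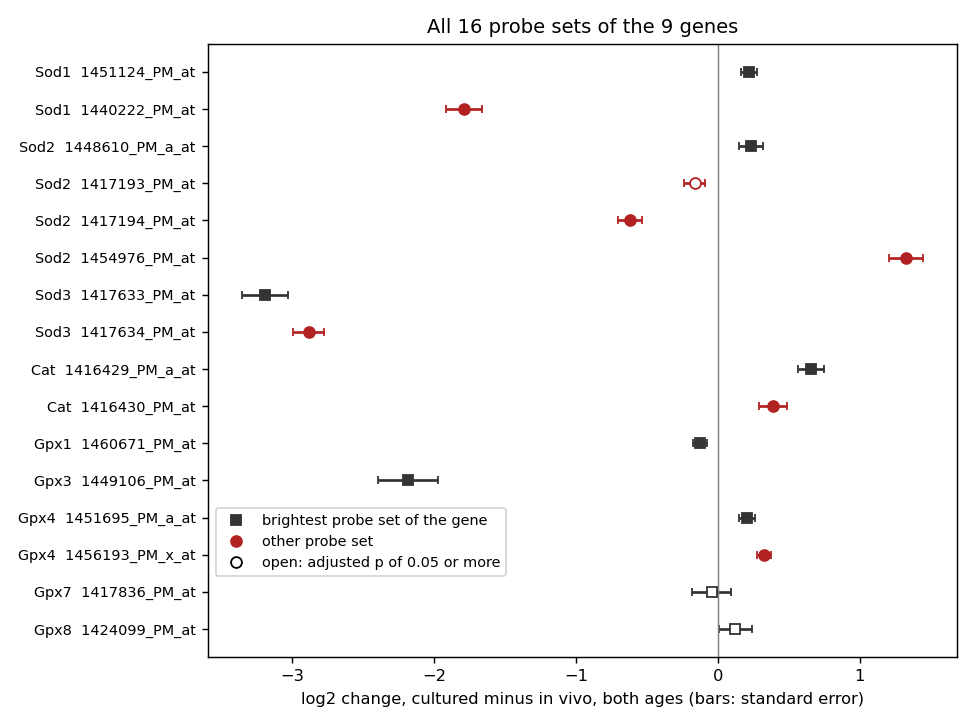
Log2 change from in vivo to cultured, averaged over ages (x axis, bars are standard errors), for each of the 16 probe sets of the 9 genes (y axis); squares are the brightest probe set of a gene and open symbols did not pass an adjusted p of 0.05. The probe sets of Sod3, Cat and Gpx4 share a direction within each gene, and those of Sod1 and Sod2 do not.

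In vivo, age gave no call among the 9 genes (0 of 9), where 200 of 14819 genes (1.35%) passed; 2 of the 9 had an unadjusted p under 0.05. Gpx4 was higher in every old than in every young in vivo sample, by 0.39 ± 0.10 (adjusted p = 0.0876, interval 0.17 to 0.60, 1.31-fold). Of all tested genes, 8.53% had young and old in vivo groups that did not overlap, and Gpx4 was the 1 such gene of the 9. It passed when all 16 arrays were fitted together (adjusted p = 0.00961) and with an intensity trend and robust fit (adjusted p = 0.0454). In the other alternatives its adjusted p went up to 0.200. Its second probe set gave 0.16 ± 0.09 (adjusted p = 0.463). Sod3 was 0.53 ± 0.16 higher in old in vivo samples (adjusted p = 0.142, interval 0.17 to 0.89), and its second probe set gave 0.63 ± 0.15 (adjusted p = 0.0782). The groups of Sod3 overlapped through young replicate 1 at 9.83 and old replicate 1 at 9.70.

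The other 7 genes had in vivo age differences between -0.31 and 0.17 with adjusted p from 0.501 to 0.692. The summed level of 6 pericyte and smooth muscle markers was 8.11 to 8.41 in young and 8.42 to 9.19 in old in vivo samples. Of the 6 markers, 1 was called higher in old cells and 5 did not pass, with a median difference of -0.08. Kcnj8 among them had group means of 7.17 in young and 8.23 in old cells. The Gapdh measure of RNA quality did not overlap between these groups either. In culture the pericyte and smooth muscle sum lay the other way, at 9.46 to 9.97 in young and 8.58 to 9.21 in old samples. The part of these markers and of RNA quality in the age differences was not tested. With old in vivo replicate 1 and young in vivo replicate 3 left out, the arrays that correlated least with the other in vivo arrays (mean correlations 0.983 and 0.982), the Gpx4 difference was 0.35 and the Sod3 difference 0.60, and neither passed.

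In culture no age difference passed among the 9 genes (0 of 9) or among all 14819 genes (0%) with limma. An unadjusted p under 0.05 was found for 533 genes (3.60%), none of them among the 9 (0 genes). The age differences of the 9 genes ran from -0.10 for Cat to 0.27 for Gpx3, and every adjusted p was 0.997. Young and old groups did not overlap for 0 of 9 genes, against 2.06% of all genes. The interval for Gpx4 was -0.16 to 0.15, which leaves out the in vivo difference of 0.39, whereas that for Sod3, -0.61 to 0.54, includes its in vivo difference of 0.53. The in vivo differences have errors of their own, so this does not test whether the age difference changed with culture.

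Whether the age difference itself changed with culture was tested as an interaction, the age difference in culture minus that in vivo. Among all genes 0.587% passed, and among the 9 none did (0 of 9). An unadjusted limma p under 0.05 was found for 1 of the 9, against 1823 of all genes (12.3%). For Gpx4 the interaction was -0.39 ± 0.11 (adjusted p = 0.140, interval -0.63 to -0.15), for Sod3 -0.57 ± 0.32 (adjusted p = 0.503) and for Gpx1 -0.19 ± 0.10 (adjusted p = 0.481). So the age differences of these genes were not shown to differ between fresh and cultured cells.

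**Figure D4:**
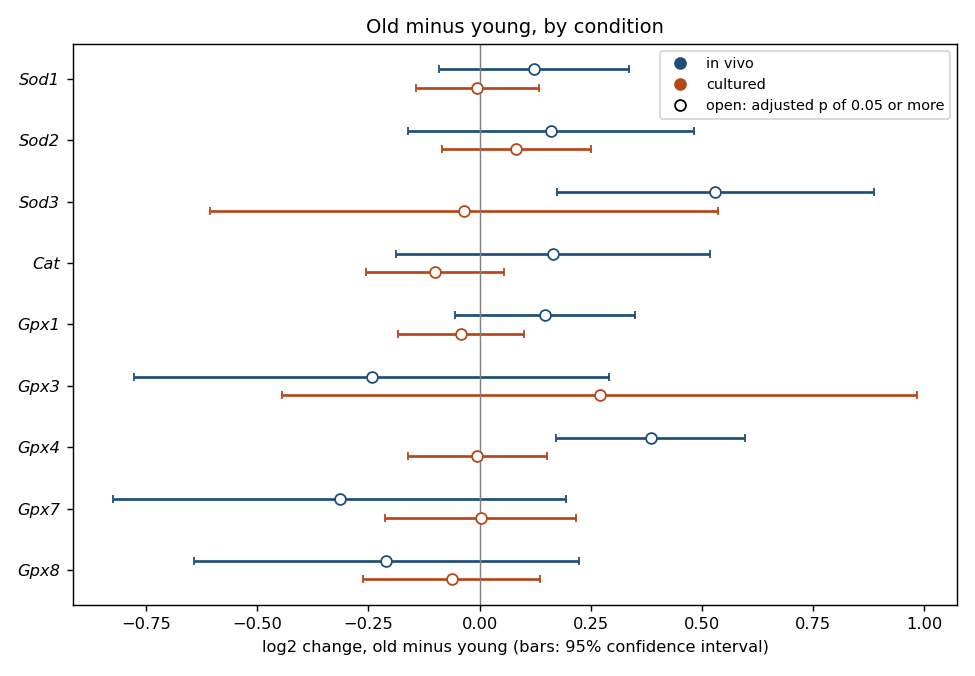
Log2 difference between old and young samples (x axis) of the 9 genes (y axis) in vivo and in culture, with 95% confidence intervals; open points did not pass an adjusted p of 0.05. All points are open, and the in vivo intervals of Gpx4 (0.17 to 0.60) and Sod3 (0.17 to 0.89) lie above 0.

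The genes that work with these enzymes were counted in 14 lists. Counts on the deposited values are to be read against the 34.8% of all tested genes that rose and the 44.7% that fell in culture. The background of the other scalings differed and is given with their counts below. Peroxiredoxins remove peroxides with thiol groups. As deposited 4 of 5 tested genes of their list, Srxn1 included, rose and none fell (0), with a median of 0.93. With cyclic loess 3 rose and 2 fell. The mitochondrial Prdx3 rose by 1.53 ± 0.10, Prdx4 of the endoplasmic reticulum by 1.01 ± 0.13, and Srxn1, which repairs peroxiredoxins, by 0.93 ± 0.09. Prdx2 rose by 0.15 ± 0.05 as deposited, but gave -0.05 with 75th percentile scaling and -0.15 with cyclic loess. In the thioredoxin system, a list that also holds glutaredoxins, 10 of 12 rose and 1 fell (median 0.93). The thioredoxin-like Nxn rose by 2.21 ± 0.11, and Txnip, a thioredoxin inhibitor, fell by 2.40 ± 0.14. The median of all genes was -0.11.

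Of 15 genes of glutathione synthesis and recycling, which feeds the glutathione peroxidases, 10 rose and 3 fell (median 1.04), where 34.8% and 44.7% of all genes did. Gclm, the modifier subunit of the rate-limiting enzyme of glutathione synthesis, rose by 1.76 ± 0.06 and the NADPH-making Me1 by 2.68 ± 0.14. Chac1, which degrades glutathione, rose by 4.55 ± 0.10, and Oplah, which recycles oxoproline, fell by 2.41 ± 0.11. As deposited, Gclm was also the 1 gene of the 151 tested in the 14 lists (0.662%, against 1.35% of all genes) called for age in vivo. It was 0.60 ± 0.10 higher in old cells (adjusted p = 0.0216, and 0.0395 and 0.0408 with 75th percentile scaling and cyclic loess). With 75th percentile scaling the copper importer gene Slc31a1 was called too, lower in old cells (-0.80, adjusted p = 0.0329), against -0.73 as deposited and -0.76 with cyclic loess (adjusted p = 0.0565), neither past the threshold. In culture the age difference of Gclm was -0.24 (adjusted p = 0.997), and the interaction of Gclm, -0.83 ± 0.12, passed the threshold (adjusted p = 0.00300). No gene of the 14 lists passed for age in culture (0 genes), as no gene on the array did.

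Metal supply was mixed. Of 8 genes of copper supply, which Sod1 and Sod3 need, 3 rose and 3 fell (median 0.06). The copper chaperone Cox17 of the respiratory chain rose by 1.88 ± 0.08, the copper importer Slc31a1 rose by 0.77 ± 0.11, and Slc31a2 fell by 1.80 ± 0.08. Of 6 manganese and mitochondrial partners of Sod2, 2 rose and 1 fell as deposited (median -0.04), 2 rose and 4 fell with 75th percentile scaling, and 2 rose and 3 fell with cyclic loess. Lonp1, a mitochondrial protease, rose by 1.14 ± 0.08, and Sirt3, a deacetylase that acts on Sod2, fell by 0.98 ± 0.09.

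Selenoprotein synthesis, on which Gpx1, Gpx3 and Gpx4 depend, had 7 of 9 genes higher and 1 lower (median 0.55), where 34.8% of all genes were higher and 44.7% lower. Sephs2, which makes the selenium donor, rose by 1.94 ± 0.11, and Secisbp2, which reads the selenocysteine signal of messenger RNAs, by 0.70 ± 0.10. Of 13 other selenoproteins 6 rose and 4 fell (median 0.16). Selenop, the secreted selenium carrier, fell by 3.74 ± 0.22, whereas Selenoh rose by 2.07 ± 0.12 and Msrb1 by 1.69 ± 0.10. Gpx2 and Gpx5, the other glutathione peroxidases tested, fell by 0.42 ± 0.09 and 0.22 ± 0.06. In each group 2 of the 3 genes of that list, the untested Gpx6 included, had means below the control level of 4.42. These small falls thus include at least 1 gene near background or rest close to it. With cyclic loess the Gpx5 difference was -0.09 and did not pass (adjusted p = 0.228).

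Of 11 genes listed under lipid peroxide defence, the pathway around Gpx4, 6 rose and 4 fell (median 0.36). The list also holds genes that work towards such peroxides, so its count is not one of defence alone. Among them Acsl4, which puts oxidisable fatty acids into membranes, rose by 2.57 ± 0.09. Mgst1, a membrane peroxidase and glutathione transferase, fell by 2.99 ± 0.18. Of 11 oxidant sources 2 rose and 7 fell (median -0.34). The monoamine oxidase Maob fell by 3.80 ± 0.14 and the hydrogen peroxide-making oxidase Duox1 fell by 3.09 ± 0.10, while Ero1a, the oxidase of the endoplasmic reticulum whose peroxide Gpx7 and Gpx8 use, rose by 2.03 ± 0.08.

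Of 24 peroxisome genes, the compartment of catalase, 9 rose and 10 fell, with a median of 0.00. Pex2 rose by 1.43 ± 0.15 and Pex7, the receptor for a class of imported enzymes, by 1.28 ± 0.14. Acox3, a peroxide-making fatty acid oxidase, fell by 1.67 ± 0.11 and Phyh fell by 1.40 ± 0.07. Among 11 regulators 3 rose and 4 fell. Pparg, a lipid-responsive receptor, rose by 2.74 ± 0.20, and Sirt1 fell by 2.10 ± 0.15. Of 13 other enzymes under NRF2, the transcription factor of the antioxidant response, 6 rose and 5 fell (median 0.10). Nqo1 rose by 3.17 ± 0.22 and Gstm1 fell by 2.19 ± 0.09. NF-kB is known to induce Sod2, and all 11 genes of the list named NF-kB feedback fell (median -1.89), where 44.7% of all genes did. That list holds feedback inhibitors such as Nfkbia, but also NF-kB subunits and induced genes such as Icam1. Icam1 fell by 4.09 ± 0.14 and Nfkbia fell by 2.65 ± 0.08.

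The scaling changed some of these counts and those of all genes. Of the 14819 genes, 12686 passed with 75th percentile scaling, 4119 of them higher. With cyclic loess 10228 passed, 4759 of them higher. With 75th percentile scaling 3 of 5 genes of the peroxiredoxin list were higher and 0 lower, and 8 of 12 of the thioredoxin list higher and 1 lower. Of 15 glutathione genes 10 were higher and 4 lower, and of 9 selenoprotein synthesis genes 6 were higher and 1 lower. With cyclic loess 8 genes of the thioredoxin list were higher and 2 lower, 10 glutathione genes higher and 3 lower, and 7 selenoprotein synthesis genes higher and 1 lower. The copper genes were 2 higher and 4 lower with the first and 3 and 4 with the second, the other selenoproteins 5 and 6 and then 4 and 6, lipid peroxide defence 5 and 5 and then 4 and 2, oxidant sources 2 and 9 and then 1 and 8, peroxisome genes 7 and 12 and then 10 and 12, regulators 2 and 6 and then 2 and 5, and other NRF2 enzymes 6 and 6 and then 6 and 7. All 11 genes of the NF-kB list were lower in both. The medians of the copper, other selenoprotein, regulator and NRF2 lists turned below 0 in both.

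**Figure D5:**
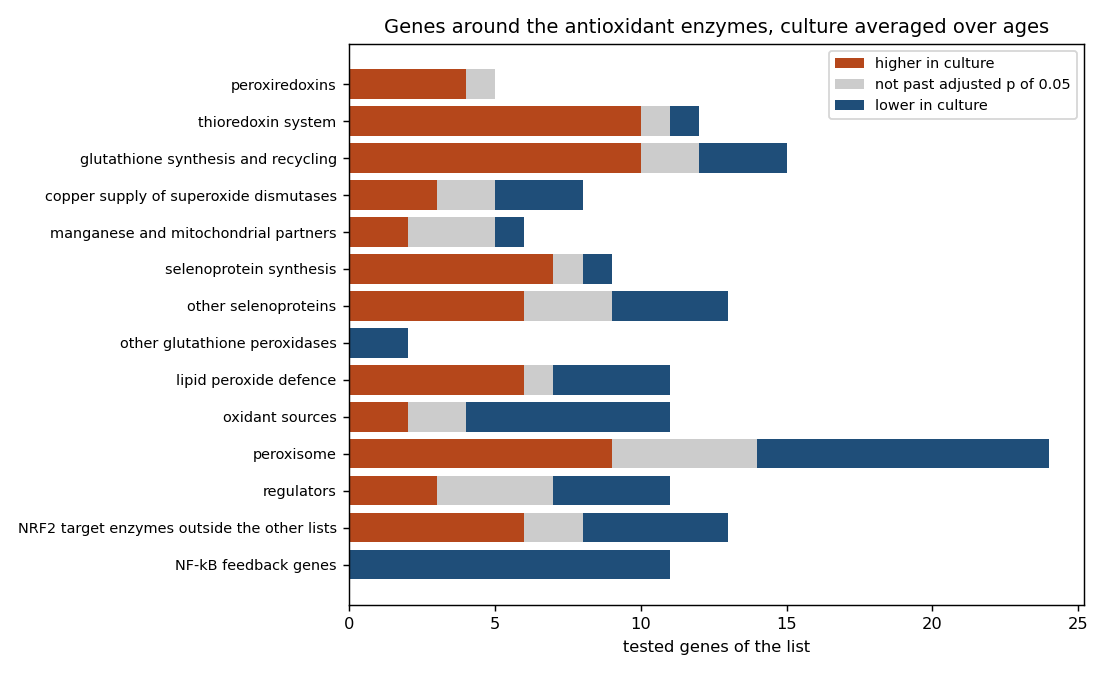
Number of tested genes (x axis) in each of 14 lists (y axis) that were higher, lower or not past an adjusted p of 0.05 in culture, averaged over ages. In the thioredoxin and glutathione lists 10 genes each were higher, and all 11 genes of the list named NF-kB feedback were lower.

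The genes whose profile over the 16 arrays was most like each of the 9 were found by the root mean square difference of log2 values after subtracting each gene's mean. For Sod3 they were Pltp (0.22), Il6ra (0.24) and Tgfbr2 (0.25), where the median over all tested genes was 1.59. For Gpx3 they were Pik3r1 (0.30), Klf11 (0.32) and Rsrp1 (0.36), with a median of 1.14. For Cat they were Hnrnpm (0.11), Ahsa2 (0.12) and Tmem165 (0.12), with a median of 0.49. Sod1 was nearest to Rpl8 (0.055) and Gpx4 to Rpl19 (0.059), both ribosomal protein genes, and Gpx1 to Ube2d3 (0.061) and the ferritin gene Ftl1 (0.063). Sod2 was nearest to Ndufa6 (0.11), and Gpx7 (0.14) and Gpx8 (0.13) were both nearest to Ykt6. Genes that change little lie close to many others by this measure, and no function is read from it.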

How the data were processed

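The 16 arrays were put into 4 groups of 4 by age and condition, from the labels. The table the authors deposited was read as log2 intensity, since they used RMA from the package affy, per the submitters' processing notes, with no version. The sources name neither the log base nor whether the arrays were normalised jointly, so the base was judged from the range of values. RMA equalises distributions, so changes are relative to other genes, and it compresses those of dim genes. The array medians of the deposited values still lay apart by condition. RNA was amplified over 23 cycles, per the labels' protocols. Of 45141 probe sets, 28898 had 1 gene symbol. Each gene took its probe set with the highest mean. Genes above 3.87 (the 25th percentile of all values) on at least 4 arrays were tested, 14819 in all.

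A limma model of the group means (version 3.58.1 in R 4.3.3, with lmFit and eBayes) gave two-sided tests with Benjamini-Hochberg adjustment over all tested genes and a threshold of 0.05. Culture and interaction used all 16 arrays. Age used the 8 arrays of its condition, because the median residual SD was 0.185 in vivo and 0.129 in culture. The culture comparisons set apart by age, and the averaged one, share arrays, and the mouse behind each array is unknown, so no block was fitted and the pairing of conditions within mice is unused. The 9 genes, the 14 lists and the 11 marker lists were chosen with earlier results of these data known. Named list genes were up to 4 per list with the largest called change in culture and up to 2 for age, and Gclm by that rule; examples in the text are taken from these. Slc31a1 is named for age after its values were seen. The 3 most alike genes were computed for each of the 9, and a further group of names (Col1a1, Dcn, Lum, Pdgfra, Adgre1, C1qa, Cd68, Lyz2, Csf1r, Adipoq, Fabp4, Acta1, Kcnj8) comes from the marker lists. The number of arrays limits the precision. The steps were tested on simulated data. Alternatives were other filters, scalings, probe set rules, weights, fits and arrays left out.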

Additional observations from a re-analysis of the deposited data

Results flagged for a closer look

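In 4 of 36 groups of 4 arrays, 1 array lay far from the other 3 by Dixon's gap test at the 95% level, and chance gives about 1 in 20 groups. Sod1 read 10.87 on young in vivo replicate 3, against 11.04 to 11.07 on the others. Sod1 read 11.17 on young cultured replicate 1, against 11.32 to 11.34. Cat read 8.32 on old in vivo replicate 1, against 8.74 to 8.77; that array also had the keratinocyte marker sum of 10.4, and its part was not tested. Gpx8 read 9.74 on young cultured replicate 4, against 9.41 to 9.43.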

How the results depend on the processing

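The falls of Sod3 and Gpx3 and the rise of Cat kept their direction and stayed past the threshold in young, in old and averaged over ages, in every alternative run on their brightest probe set or the mean of their probe sets. For Cat cyclic loess gave 0.26 in old cells (adjusted p = 0.0498), and its second probe set, tested on its own, did not pass there (0.18, adjusted p = 0.293). No paired analysis was possible because no label ties an in vivo sample to the cultured sample of its mouse, or either to its day.

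Averaged over ages, 75th percentile scaling left 4 of the 9 genes called, in place of 7, where 12686 of all genes passed in place of 11787. It turned Gpx8 averaged over ages (-0.074) and in young (-0.19), Sod1 (-0.0025), Gpx4 (-0.15) and Gpx7 (-0.043) in old cells, the age differences in culture of Sod1 and Gpx4 (0.005 each) and the interaction of Sod2 (0.0025). Cyclic loess turned Sod1 (-0.075), Sod2 (-0.077), Gpx4 (-0.098) and Gpx8 (-0.18) averaged over ages; Sod1 (-0.051), Sod2 (-0.083) and Gpx8 (-0.30) in young; and Sod1 (-0.099), Sod2 (-0.071), Gpx4 (-0.25), Gpx7 (-0.15) and Gpx8 (-0.066) in old cells. It also turned the age differences in culture of Sod1 (0.0018) and Gpx7 (-0.00036) and the interaction of Sod2 (0.012). The mean over probe sets gave Sod1 -0.78 averaged over ages, -0.74 in young and -0.83 in old, and age differences in culture of 0.01 for Sod3 and 0.016 for Gpx4. Array weights turned Gpx7 for age in culture (-0.034).

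Without the in vivo array of each age that correlated least, an alternative chosen after seeing the data, Gpx8 read -0.011 averaged over ages and -0.027 in young, Gpx7 -0.068 in old, Sod2 -0.0067 for age in vivo and 0.089 for the interaction, and 162 genes passed the interaction. For age in vivo 200 genes passed, against 392 with array weights, 900 with all 16 arrays in 1 fit, and 60 (without young in vivo replicate 2) to 306 (without old in vivo replicate 1) when leaving arrays out; 1 of the 9 genes, Gpx4, passed with all 16 arrays in 1 fit and with an intensity trend and robust fit. For the interaction 87 passed, against 185 with array weights and 44 (without young cultured replicate 4) to 200 (without old in vivo replicate 1).

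Leaving out 1 array at a time, the following uncalled differences changed sign: culture in young, Gpx1 -0.067 to 0.0042 and Gpx8 -0.03 to 0.097; culture in old, Gpx4 -0.023 to 0.043 and Gpx7 -0.068 to 0.34; culture averaged, Gpx7 -0.14 to 0.070; age in culture, Sod1 -0.046 to 0.011, Sod3 -0.22 to 0.12, Gpx3 -0.049 to 0.54, Gpx4 -0.035 to 0.033, Gpx7 -0.066 to 0.064 and Gpx8 -0.093 to 0.018; interaction, Sod2 -0.16 to 0.015 and Gpx8 -0.046 to 0.28. Over all alternatives, sign turns included, single genes lost 15 culture calls (11 averaged over ages, 4 in young) and gained 18 (1 averaged, 11 in young, 6 in old), and 2 stayed called with the sign turned (Sod1, mean over probe sets). The causes were not tested.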
